A study of Homo sapiens with 24 samples.

Results

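The metallothionein genes MT2A, MT1A, MT1E, MT1F, MT1G, MT1H, MT1M and MT1X were described in HepG2 cells together with MTF1, the gene of the transcription factor that switches them on. The 9 genes were taken by name, as metallothionein genes and their activator, from the 26475 gene symbols counted in every library. Metallothioneins are small proteins rich in cysteine that bind zinc and copper and capture toxic metals such as cadmium. MTF1 senses free zinc through its zinc fingers and binds short promoter sequences called metal response elements. The liver is a main site of metallothionein synthesis, where the genes also respond to glucocorticoids and to cytokines of inflammation.

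The data were RNA-seq counts per gene from HepG2, an established human hepatocellular carcinoma line, in 24 libraries that form 8 groups of 3. Cells received the vehicle DMSO, 50 nM of ABBV-075, ABBV-744 in a dose of either 50 or 500 nM, interferon gamma (IFNg), or IFNg combined with any of these 3 inhibitor treatments. ABBV-075 inhibits both bromodomains of the BET proteins, readers of acetylated chromatin, and ABBV-744 is selective for the BD2 domain. The study's methods give 12 hours for ABBV-075 and list DMSO with drugs given for 24 hours, so drug and hours cannot be told apart where these groups are compared. The hours of ABBV-744 and IFNg and the dose of IFNg are not stated. The methods call the DMSO and ABBV-075 samples independent, in experimental triplicate, while the labels do not say whether the other replicates were separate cultures, and the p-values measure the spread between these libraries.

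Gene counts per library ran from 2978982 to 4304103, with a median of 3462418.5. Levels are given as CPM, the count scaled to a common library total after TMM normalization, and 3 counts, the upper limit that a count of 0 allows, equalled 0.697 to 1.01 CPM before that normalization. Intervals and floors of this kind cover counting error only. Of all reads, 11.95% to 16.8% were assigned to a gene, and the multimapping reads, which were not counted, were 56.0% to 69.4%. The multimapping share was 56.0% to 61.0% in DMSO, 66.2% to 69.4% with ABBV-744 at 50 nM and 57.5% to 59.6% with IFNg plus ABBV-744 at 50 nM, and the part of this difference in the results was not tested. Within the ABBV-075 group, replicate 3 had 67.4% multimapping reads against 56.0% and 64.4%, and its log2 CPM correlated at 0.958 and 0.972 with replicates 1 and 2, which correlated at 0.981 with each other. In bulk RNA, fewer expressing cells and less RNA per cell cannot be told apart.

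The libraries carried the RNA of liver cells. The 9 hepatocyte and HepG2 markers summed to 19647 to 27037 CPM per library, with none at 0, and APOB, which encodes the main protein of low density lipoprotein, was the most abundant at 4681 to 13769 CPM. Among 4 fibroblast markers, the collagen genes COL1A2 and COL3A1 were at 0 in all libraries and the sum, carried by PDGFRB, was 1.15 to 7.33 CPM. Of 4 leukocyte markers, PTPRC and CD3E were at 0 and the macrophage and lysosome gene CD68 was the most abundant at 7.42 to 22.7 CPM. Of 4 endothelial markers, KDR was at 0 and PECAM1 was the most abundant, at 0 to 1.19 CPM. The fibroblast sum averaged 6.71 CPM in DMSO, 1.85 with ABBV-075, 2.99 with ABBV-744 at 50 nM and 2.98 at 500 nM, and the leukocyte sum 21.3, 11.3, 17.3 and 17.3 CPM. With IFNg alone and with IFNg plus ABBV-075, ABBV-744 at 50 nM and ABBV-744 at 500 nM, the fibroblast sum averaged 5.26, 1.63, 2.69 and 1.85 CPM and the leukocyte sum 25.4, 10.8, 9.40 and 10.4 CPM. The endothelial sum averaged 1.77 CPM in DMSO, 0.577 with ABBV-075, 0.626 with ABBV-744 at 50 nM and 0.599 at 500 nM. With IFNg alone it was 1.41 CPM, and 0.382, 0.981 and 0.522 CPM in the same combinations. The hepatocyte sum averaged 21340 CPM in DMSO and 25300 with ABBV-075. After the GC correction described below, ABBV-075 raised APOB (log2 change 0.77) and APOA1 (0.36) and lowered ALB (-0.51), TTR (-0.45), TF (-0.43) and AFP (-0.36). The part of these markers in the results was not tested.

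The 8 metallothionein genes lie within 75613 bp of chromosome 16, from 56608584 at the start of MT2A to 56684196 at the end of MT1X on build GRCh38. MT1G is on the minus strand and the other 7 are on the plus strand, while MTF1 lies on chromosome 1 from 37809574 to 37859592. The genes are close relatives in sequence. Of the 50-base windows of each gene's Ensembl canonical transcript, the share also present in another gene was 11.1% for MT2A, 10.3% for MT1E, 19.9% for MT1G, 18.03% for MT1X, 6.12% for MT1F and 0.900% for MTF1. With 100-base windows it was 0% for the same metallothionein genes and 0.0510% for MTF1, so the share depends on the window length used. Reads that map to several genes were not counted, so each level may be underestimated by an unknown amount that differs between genes.

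Promoter sequence was available in the RefSeq table (build GRCh38.p14) for 4 of the 9 genes, namely MT2A, MT1H, MT1X and MTF1. MT2A and MT1X are printed because both rose with each inhibitor given alone, and MT2A also passed the test with IFNg alone. Each line gives the 250 bases before the start of the gene on the plus strand, at chr16:56608334-56608583 for MT2A and chr16:56682220-56682469 for MT1X. Capitals mark the core of the metal response element, TGCACNC or TGCGCNC, found on either strand.
MT2A: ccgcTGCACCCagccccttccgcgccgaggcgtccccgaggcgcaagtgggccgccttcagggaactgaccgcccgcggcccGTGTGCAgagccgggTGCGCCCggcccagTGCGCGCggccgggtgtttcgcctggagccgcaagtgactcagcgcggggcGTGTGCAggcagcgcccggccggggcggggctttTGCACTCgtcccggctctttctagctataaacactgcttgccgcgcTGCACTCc
MT1X: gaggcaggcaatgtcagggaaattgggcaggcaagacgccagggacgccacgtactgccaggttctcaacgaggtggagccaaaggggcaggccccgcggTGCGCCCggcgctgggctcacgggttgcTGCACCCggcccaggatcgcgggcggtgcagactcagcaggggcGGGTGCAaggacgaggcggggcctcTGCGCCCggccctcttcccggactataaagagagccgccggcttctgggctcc

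The MT2A promoter held 7 matches to this core and the MT1X promoter 4, against 8 for MT1H and 0 for MTF1. Of 35114 human promoters of the same length, 24.8% held at least 1 match, 0.370% at least 4 and 0.0313% at least 7. A second motif searched for, TTCNNNGAA (GAS, not marked above), had 1 match in the MT2A promoter, 194 bases before the start. It had 0 in those of MT1X, MT1H and MTF1, and 6.57% of the human promoters held at least 1. These matches describe letters in the window and say nothing of binding in these cells.

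Levels of the metallothionein genes in DMSO-treated cells spanned a wide range. Per kilobase of the Ensembl canonical transcript, the mean in DMSO was 237 CPM for MT2A, 145 for MT1E, 103 for MT1G, 84.7 for MT1F and 62.8 for MT1X. This order depends on the length used: the canonical transcript of MT2A has 401 bases and its longest 903, and in CPM without scaling by length the DMSO mean was 95.2 for MT2A and 108 for MT1E. MT1A and MT1M were lower, at 15.1 and 15.0 CPM per kb, and MTF1 was at 2.87 CPM per kb. MT1A had 11 to 31 counts per library (2.65 to 8.65 CPM) and MT1M had 7 to 30 (1.99 to 8.99 CPM). MT1H had 0 to 5 counts, was at 0 in 10 of 24 libraries including the 3 of DMSO, and was too low to test in any comparison with the filter used. Of 13 further metallothionein genes and pseudogenes looked up, 8 were in the files: MT1B, MT1HL1, MT3 and MT1IP were at 0 in all 24 libraries, MT1L, MT4 and MT1JP reached at most 1 count and MT1DP at most 2, and none could be tested.

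MT2A had 384, 385 and 407 counts in the DMSO libraries, or 103, 85.5 and 97.1 CPM. It reached 228, 254 and 278 CPM with ABBV-075, 177, 238 and 196 CPM with ABBV-744 at 50 nM, and 214, 257 and 257 CPM with ABBV-744 at 500 nM. Every library of the 3 inhibitor groups was above every DMSO library. IFNg alone gave 171, 173 and 218 CPM. IFNg with ABBV-075 gave 446, 529 and 522 CPM, with ABBV-744 at 50 nM 295, 329 and 294 CPM, and with ABBV-744 at 500 nM 381, 414 and 397 CPM. Each of the 3 combinations was above IFNg alone and above every group without IFNg, with no overlap. By group mean the order from low to high was DMSO (95.2 ± 8.89 CPM, SD, n = 3), IFNg (187 ± 26.4), ABBV-744 at 50 nM (203 ± 31.1), ABBV-744 at 500 nM (243 ± 24.5), ABBV-075 (253 ± 24.7), IFNg plus ABBV-744 at 50 nM (306 ± 19.7), IFNg plus ABBV-744 at 500 nM (397 ± 16.6) and IFNg plus ABBV-075 (499 ± 45.8). The 4 groups from IFNg to ABBV-075 overlapped their neighbours in this order, and all other neighbours were apart.

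**Figure D1:**
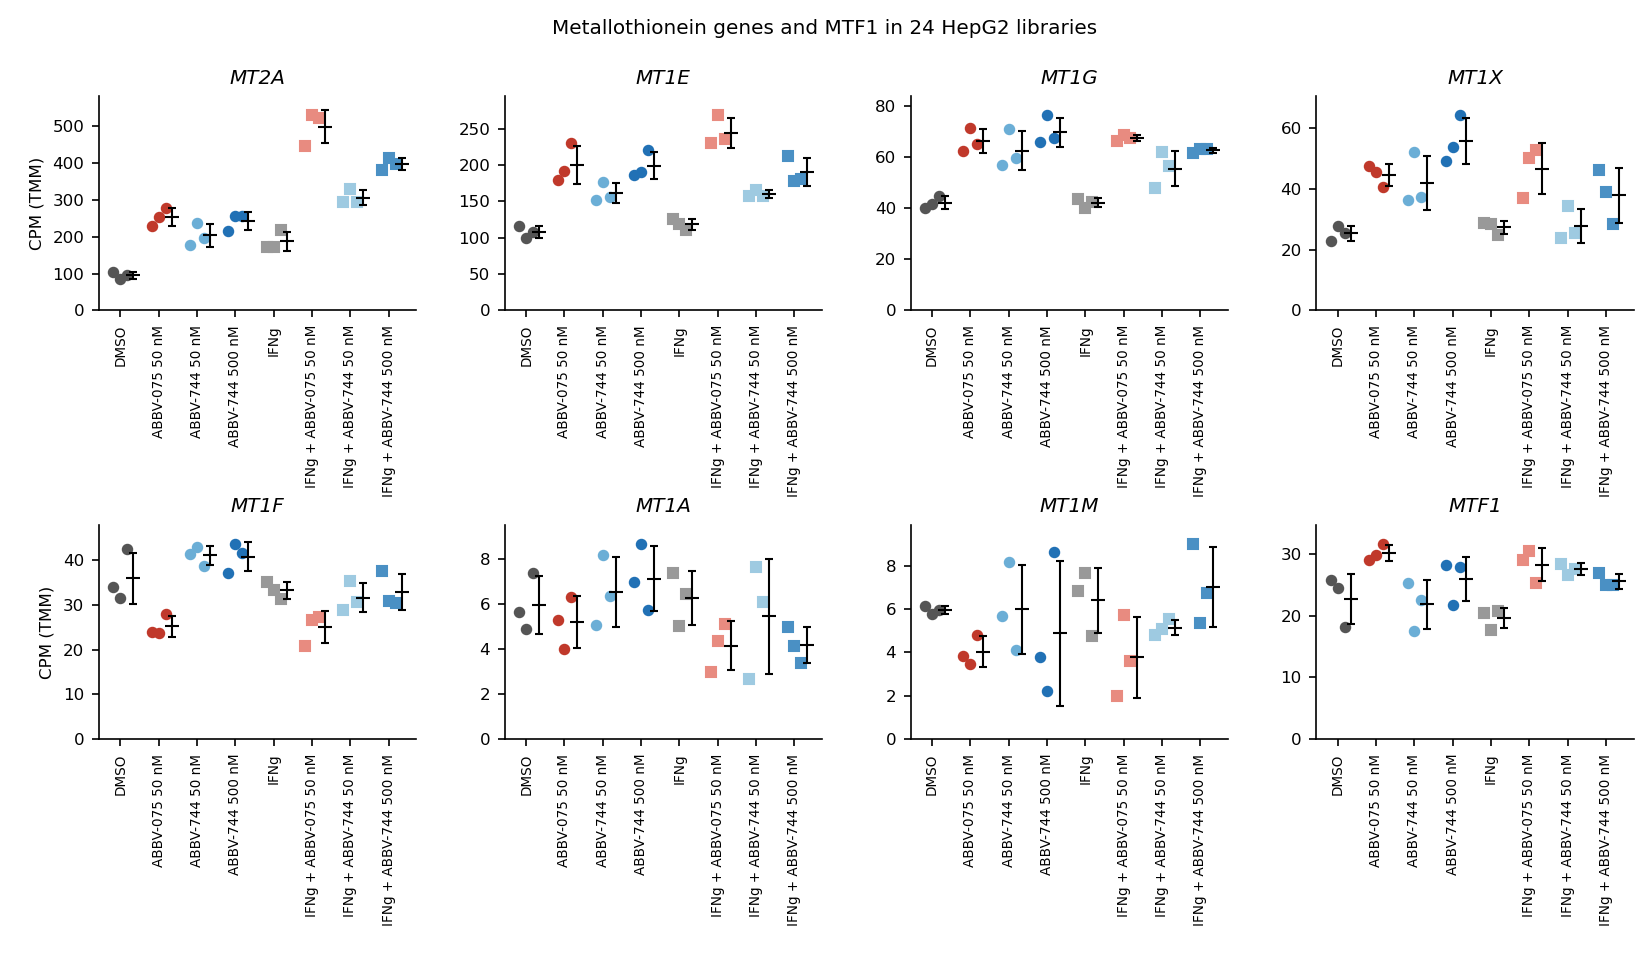
Level of 7 metallothionein genes and MTF1 in CPM (linear axes) in the 24 libraries, by group, with 1 point per library and the group mean ± SD in black. MT2A was lowest in DMSO (85.5 to 103 CPM) and highest with IFNg plus ABBV-075 (446 to 529 CPM).

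MT1E was at 117, 99.9 and 109 CPM in DMSO, 179.7, 192 and 230.0 CPM with ABBV-075, 151, 177 and 156 CPM with ABBV-744 at 50 nM, and 187, 190.0 and 221 CPM with ABBV-744 at 500 nM. With IFNg alone it was at 126, 119 and 111 CPM. With IFNg plus ABBV-075 it was at 230.0, 268 and 236 CPM, with IFNg plus ABBV-744 at 50 nM at 158, 166 and 157 CPM, and with IFNg plus ABBV-744 at 500 nM at 212, 178 and 181 CPM. DMSO and IFNg alone overlapped, and all 6 groups with an inhibitor were above both.

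MT1G was at 40.2, 41.5 and 44.8 CPM in DMSO, 62.5, 71.5 and 64.95 CPM with ABBV-075, 57.0, 71.0 and 59.7 CPM with ABBV-744 at 50 nM, and 65.7, 76.3 and 67.3 CPM with ABBV-744 at 500 nM. IFNg alone gave 43.7, 40.1 and 42.5 CPM, and its combinations 66.4, 68.8 and 67.5 CPM (ABBV-075), 48.0, 61.9 and 56.6 CPM (ABBV-744 at 50 nM) and 61.6, 63.2 and 63.0 CPM (ABBV-744 at 500 nM). As for MT1E, the 6 groups with an inhibitor stood above DMSO and IFNg alone, which overlapped, and neighbours among the 6 overlapped.

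MT1X was at 22.8, 27.8 and 25.5 CPM in DMSO, 47.5, 45.7 and 40.6 CPM with ABBV-075, 36.4, 52.2 and 37.2 CPM with ABBV-744 at 50 nM, and 49.1, 53.8 and 64.1 CPM with ABBV-744 at 500 nM. With IFNg alone it was at 28.9, 28.3 and 24.9 CPM, and with IFNg plus ABBV-075 at 37.0, 50.0 and 52.7 CPM. With IFNg plus ABBV-744 it was at 23.9, 34.2 and 25.4 CPM at 50 nM and 46.3, 38.9 and 28.3 CPM at 500 nM. The 3 inhibitor groups without IFNg were above DMSO, while both IFNg plus ABBV-744 groups had libraries within reach of IFNg alone.

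MT1F was lower with ABBV-075, at 23.9, 23.8 and 27.97 CPM against 34.04, 31.5 and 42.5 CPM in DMSO. It was at 41.4, 43.0 and 38.7 CPM with ABBV-744 at 50 nM and 37.2, 43.6 and 41.7 CPM at 500 nM. IFNg alone gave 35.2, 33.4 and 31.3 CPM, against 20.9, 26.7 and 27.4 CPM with ABBV-075 added, 28.9, 35.3 and 30.7 CPM with ABBV-744 at 50 nM added and 37.6, 30.8 and 30.4 CPM with ABBV-744 at 500 nM added. Both ABBV-075 groups were below their controls without overlap, and the ABBV-744 groups overlapped theirs.

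MTF1 itself stayed within 17.6 to 31.6 CPM. It was at 25.7, 24.4 and 18.1 CPM in DMSO, 29.0, 29.9 and 31.6 CPM with ABBV-075, 25.3, 17.6 and 22.5 CPM with ABBV-744 at 50 nM, and 28.2, 21.8 and 27.9 CPM at 500 nM. IFNg alone gave 20.5, 17.7 and 20.7 CPM, IFNg plus ABBV-075 29.1, 30.5 and 25.3 CPM, and IFNg plus ABBV-744 28.4, 26.6 and 27.6 CPM at 50 nM and 27.0, 24.9 and 24.9 CPM at 500 nM. ABBV-075 was above DMSO and each combination above IFNg alone, with no overlap.

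The log2 changes with treatment were related to the GC content of the transcripts, which bears on all tests that follow. The members' longest transcripts hold 53.9% GC in MT2A, 53.2% in MT1E, 56.7% in MT1G, 53.7% in MT1X, 58.2% in MT1F and 46.6% in MTF1, against a median of 47.5% over the genes tested in ABBV-075 against DMSO. Across genes, which are not independent replicates, the log2 change correlated with GC content at r = -0.28 for ABBV-075 against DMSO (11091 genes), 0.53 for ABBV-744 at 50 nM (10968) and 0.30 at 500 nM (10979), and 0.16 for IFNg (11070). Against IFNg alone, r was -0.32 with ABBV-075 (11044 genes), -0.64 with ABBV-744 at 50 nM (11003) and -0.50 at 500 nM (10952). The source of these trends was not tested. Values after a correction of each library for GC content, chosen after seeing the data, are therefore given for the members wherever the correction changes a call or moves a called value by over 1.5 times, and as counts of calls for the other gene lists.

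**Figure D2:**
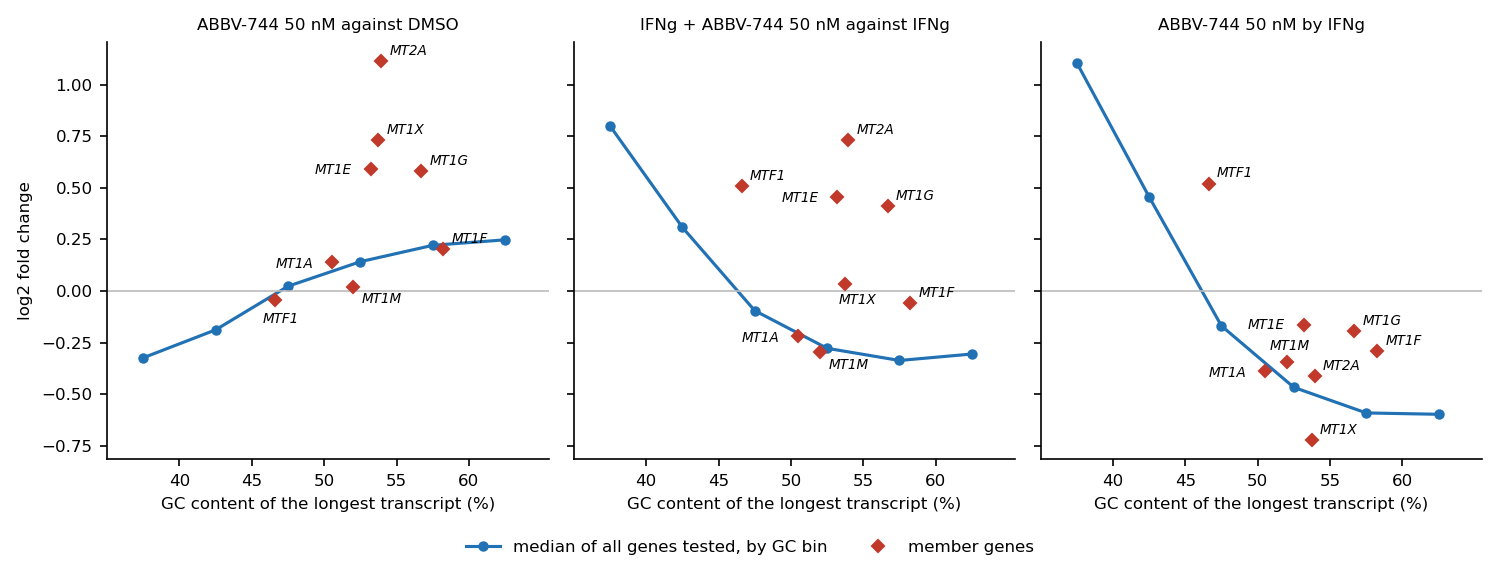
Log2 change against the GC content of the longest transcript for ABBV-744 at 50 nM against DMSO, IFNg plus ABBV-744 at 50 nM against IFNg, and the difference between them, with the median of all genes tested in 6 bins of GC content (blue, outer bins open-ended) and the members (red). The median climbs with GC content in the first panel, falls in the third, and in the second falls up to 60% GC and is less low beyond it, and MT2A lies above the median in all 3.

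ABBV-075 against DMSO asks how inhibition of both bromodomains moves these genes. MT2A rose 2.62-fold, a log2 change of 1.39 (SE 0.124, 95% interval 1.12 to 1.66, adjusted p = 9.53e-06), and was higher in 3 of 3 libraries. Its relatives MT1E, MT1X and MT1G rose as well, by log2 changes of 0.87 (adjusted p = 0.000336), 0.79 (0.00143) and 0.63 (0.00288). MT1F fell by 0.54 on the log2 scale (SE 0.166, adjusted p = 0.0224). A gene was called where its adjusted p over all genes tested was at most 0.05, and of 8 members tested 4 were called higher and 1 lower, against 19.8% of the 11244 genes tested that were higher and 19.6% that were lower. The other 3 log2 changes ran from -0.59 for MT1M (interval -1.17 to -0.0049, adjusted p = 0.0991), whose 3 libraries were all below DMSO, to 0.38 for MTF1 (interval 0.014 to 0.75, adjusted p = 0.0910). MTF1 was called after the GC correction (0.44, adjusted p = 0.0234) and in a joint fit of all 24 libraries (0.41), and ran from 0.24 to 0.48 with single libraries left out. The MT1F call was lost without DMSO replicate 1 (log2 change -0.57), DMSO replicate 3 (-0.40) or ABBV-075 replicate 2 (-0.49), and with DESeq2 (-0.53), the length correction (-0.39) or the GC correction joined to a replicate block (-0.36). Without ABBV-075 replicate 3, the library least correlated with its group, the same 5 members were called and MT2A was at 1.32.

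ABBV-744 at 50 nM, the BD2-selective compound at the matched dose, raised MT2A, MT1X, MT1E and MT1G. MT2A rose 2.16-fold (log2 change 1.11, SE 0.113, interval 0.88 to 1.35, adjusted p = 2.03e-07) and was higher in 3 of 3 libraries. MT1X rose by 0.73 (adjusted p = 0.00245), MT1E by 0.59 (0.000365) and MT1G by 0.58 (0.00255). Thus 4 of 8 members were called higher and 0 lower with edgeR, where 8.81% of genes tested were higher and 10.1% lower. At an unadjusted p below 0.05 the count was also 4, and DESeq2 called 4. The other 4 log2 changes ran from -0.04 to 0.20. The GC correction brought MT1G to 0.38 (adjusted p = 0.0172). With scaling by library size only, the median log2 change of all genes was -0.10, the split of all calls moved from 979 higher and 1123 lower to 415 and 1220, and MT2A and MT1E were at 1.00 and 0.48.

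At 500 nM, ABBV-744 raised MT2A 2.56-fold (log2 change 1.36, SE 0.101, interval 1.15 to 1.56, adjusted p = 4.18e-11), again in 3 of 3 libraries. MT1X rose by 1.14 (adjusted p = 9.79e-07), MT1E by 0.89 (1.44e-07) and MT1G by 0.73 (7.46e-05). These 4 of 8 members were called higher and 0 lower, against 7.48% of all genes higher and 7.8% lower. The unadjusted count below 0.05 was 4 and the DESeq2 count 4, and the remaining 4 log2 changes ran from -0.26 to 0.25. MT1F, which fell with ABBV-075, and MTF1 were among the genes not called at either dose of ABBV-744.

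**Figure D3:**
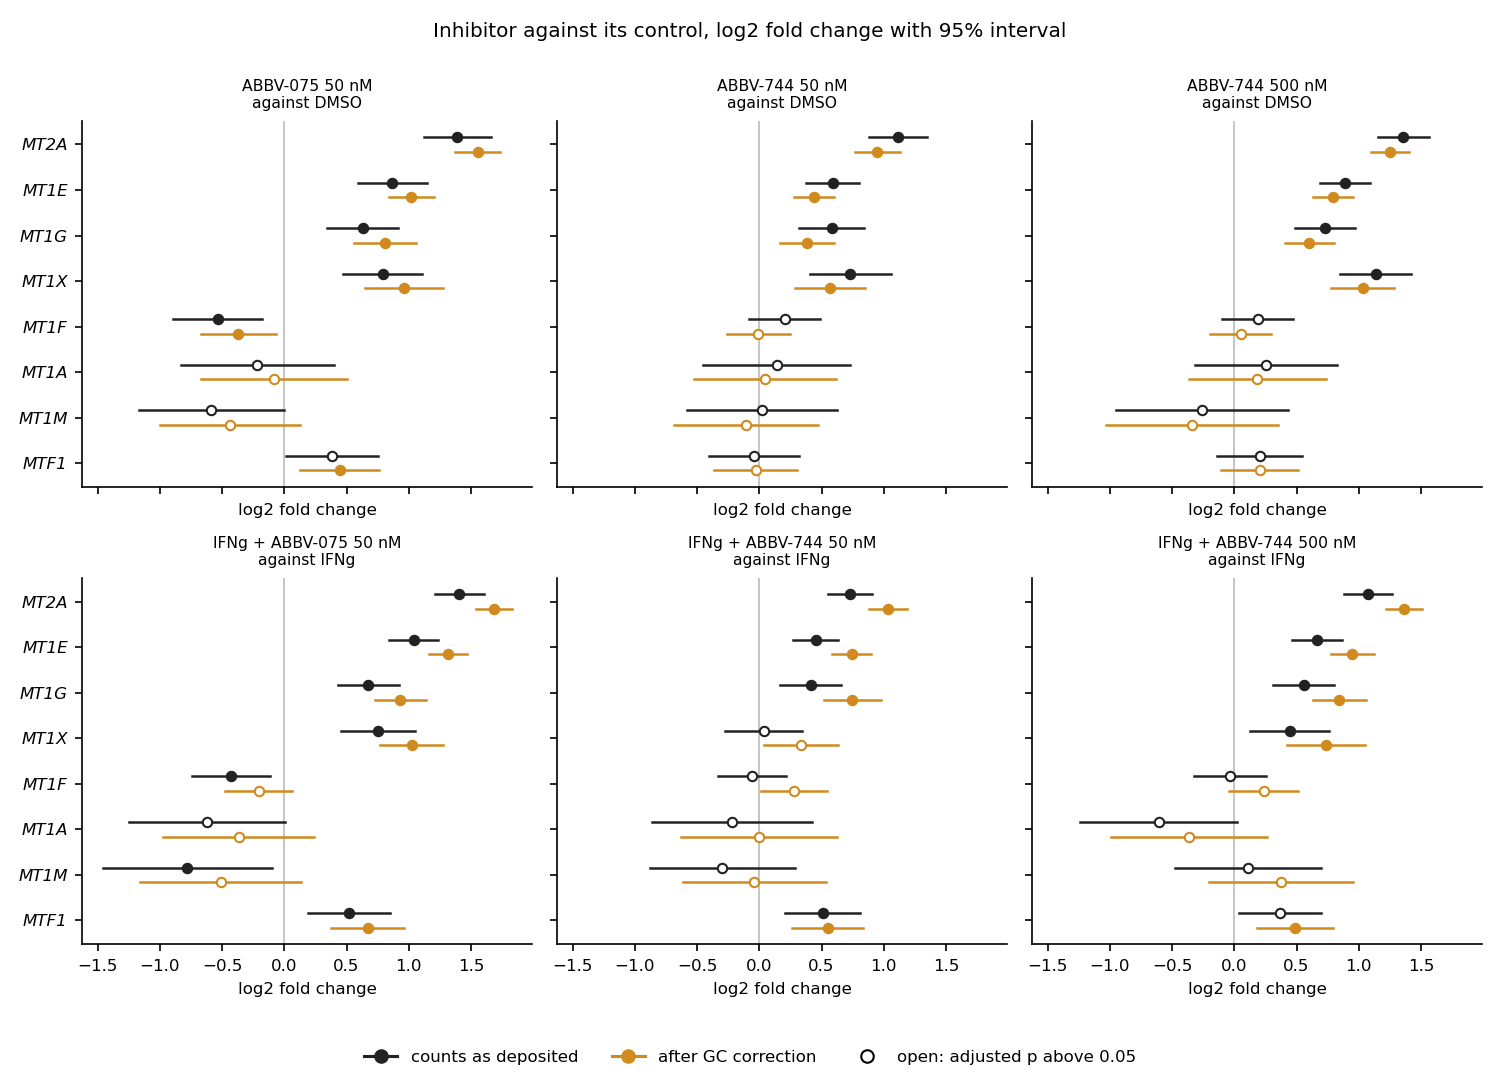
Log2 change of each tested member with its 95% interval in the 6 comparisons of an inhibitor with its control, from the deposited counts (black) and after the GC correction (orange), open where the adjusted p is above 0.05. MT2A, MT1E and MT1G are filled in all 6 panels.

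IFNg against DMSO asks what the cytokine does on its own. The interferon response genes GBP1 and IRF1 rose by 4.89 and 4.26 on the log2 scale. MT2A rose 1.97-fold (log2 change 0.98, SE 0.096, interval 0.78 to 1.17, adjusted p = 3.82e-10), with 3 of 3 libraries above DMSO. It was the 1 member called higher of 8 tested, with 0 lower, where 2.76% of genes tested were higher and 0.695% lower. At an unadjusted p below 0.05 the count was 1 in all, and DESeq2 called 1. The other 7 log2 changes ran from -0.21 to 0.13, and whether MT2A differs from them was not tested.

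Among cells given IFNg, ABBV-075 raised MT2A 2.65-fold over IFNg alone (log2 change 1.41, SE 0.096, interval 1.21 to 1.60, adjusted p = 3.99e-15), with 3 of 3 libraries higher. MT1E rose by 1.04 (adjusted p = 1.42e-11), MT1X by 0.75 (4.33e-05) and MT1G by 0.67 (1.08e-05). MTF1 rose as well, by 0.52 (SE 0.164, adjusted p = 0.00672). MT1F fell by 0.43 (adjusted p = 0.0169) and MT1M, at 6.82, 7.68 and 4.76 CPM with IFNg and 1.99, 5.71 and 3.62 CPM in the combination, fell by 0.78 (SE 0.335, adjusted p = 0.0453) with overlap between the groups. In all, 5 of 8 members were called higher and 2 lower, against 28.2% and 28.4% of all genes tested.

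The calls of MT1F and MT1M changed when single libraries were left out. Without IFNg replicate 1, MT1F stood at -0.39 and MT1M at -0.73, and without the combination's replicate 1 at -0.29 and -0.43, all uncalled. MT1M was also uncalled without IFNg replicate 2 (-0.64) or the combination's replicate 3 (-0.76), and without the combination's replicate 2 it was at -1.23. The GC correction ended both calls (-0.20 and -0.51), as did DESeq2 (-0.41 and -0.77) and the length correction (-0.25 and -0.74), which also ended that of MTF1 (0.31). A joint fit of all 24 libraries ended that of MT1M (-0.77).

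IFNg plus ABBV-744 at 50 nM raised MT2A 1.66-fold over IFNg alone (log2 change 0.73, SE 0.087, interval 0.55 to 0.91, adjusted p = 1.58e-08), in 3 of 3 libraries. MT1E rose by 0.45 (adjusted p = 6.26e-05), MT1G by 0.41 (0.00451) and MTF1 by 0.51 (SE 0.149, adjusted p = 0.00471). MT1X, which rose with this compound in the absence of IFNg, was at 0.036 (interval -0.27 to 0.34, adjusted p = 0.860). The 4 called members of 8 were higher and 0 were lower, against 27.4% of all genes higher and 24.3% lower, and both the unadjusted count below 0.05 and the DESeq2 count were 4. After the GC correction MT2A was at 1.03, MT1E at 0.74, MT1G at 0.75 and MT1X at 0.33 (adjusted p = 0.0777). The length correction ended the MTF1 call (0.21) and gave 0.62 for MT1G, and the sign of MT1X turned without IFNg replicate 3 (-0.043) or the combination's replicate 2 (-0.15).

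With ABBV-744 at 500 nM on top of IFNg, MT2A rose 2.10-fold (log2 change 1.07, SE 0.094, interval 0.88 to 1.26, adjusted p = 9.10e-11), in 3 of 3 libraries. MT1E rose by 0.66 (adjusted p = 1.62e-06), MT1G by 0.56 (0.000288) and MT1X by 0.44 (0.0203), and MTF1 was at 0.36 (interval 0.035 to 0.69, adjusted p = 0.0654). These are 4 of 8 members higher and 0 lower with edgeR, against 22.9% and 22.8% of all genes, with 5 at an unadjusted p below 0.05 and 3 by DESeq2. The uncalled log2 changes ran from -0.61 to 0.36, and MT1A, not called, was below IFNg alone without overlap. The MT1X call was lost by DESeq2 (0.48) and without IFNg replicate 3 (0.37) or replicate 1 (0.30) or 2 (0.42) of the combination. After the GC correction MT1G was at 0.84, MT1X at 0.73 and MTF1 at 0.49 (adjusted p = 0.0111), and MTF1 was also called with scaling by library size only (0.40).

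The compounds differ in which BET domain they block, and 50 nM is the dose they share, although their hours of treatment are not both known. Without IFNg, MT2A was 1.23-fold higher with ABBV-075 than with ABBV-744, a log2 difference of 0.30 (interval 0.0012 to 0.61) that was not called (adjusted p = 0.0976). MT1E was at 0.30 (interval 0.015 to 0.59, adjusted p = 0.0840), MT1G at 0.073 (-0.24 to 0.39), MT1X at 0.082 (-0.31 to 0.47) and MTF1 at 0.45 (0.063 to 0.84, adjusted p = 0.0613), and a p that misses the threshold does not show that the compounds act alike. MT1F was lower with ABBV-075, by a log2 difference of -0.71 (SE 0.152, interval -1.05 to -0.38, adjusted p = 0.00520), and all 3 libraries were below all 3 of ABBV-744. So 1 of 8 members was called lower and 0 higher by edgeR, where 19.4% of genes tested were lower and 21.4% higher, against 4 in all at an unadjusted p below 0.05 and 1 by DESeq2.

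Calls in this comparison changed with the setting, and the log2 differences fell with GC content across genes (r = -0.57, 10852 genes). After the GC correction ABBV-075 was higher for MT2A by 0.62 (interval 0.41 to 0.82, adjusted p = 0.000296), MT1E by 0.59 (0.000236), MT1G by 0.44 (0.0102) and MTF1 by 0.49 (0.0263), and MT1F was lower by -0.35 (0.0494), where 16.4% of all genes were higher and 17.9% lower. MT1X was then at 0.40 (adjusted p = 0.0551, not called). Scaling by library size only called MT2A (0.37) and MT1E (0.37), and the length correction did so at 0.55 and 0.55. The joint fit of all 24 libraries called MT2A (0.32), MT1E (0.31) and MTF1 (0.46). With single libraries left out, MT1E ran from 0.20 to 0.38 and MT1G from 0.013 to 0.17. Without ABBV-075 replicate 1, MT1E was also called (0.38), and without ABBV-744 replicate 1, MTF1 was (0.58).

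In cells given IFNg, 4 members differed between the matched compounds. MT2A was 1.69-fold higher with ABBV-075 than with ABBV-744 at 50 nM (log2 difference 0.75, SE 0.085, interval 0.58 to 0.92, adjusted p = 1.51e-09), with all 3 libraries above all 3. MT1X was higher by 0.79 (adjusted p = 3.59e-05), MT1E by 0.66 (6.50e-08) and MT1G by 0.34 (0.0173), while MT1F was at -0.30 (interval -0.60 to 0.0060, adjusted p = 0.124). Of 8 members, 4 were called higher and 0 lower, against 16.7% and 17% of all genes, and the unadjusted count below 0.05 was 4 and that of DESeq2 3. The MT1G call was lost by DESeq2 (0.34), with scaling by library size only (0.21), in the joint fit (0.29), after the GC (0.19) or length correction (0.21), and without replicate 2 of IFNg plus ABBV-075 (0.32) or replicate 1 of IFNg plus ABBV-744 (0.23). MT1F was called with scaling by library size only (-0.42) and after the GC correction (-0.48), and ran from -0.37 to -0.15 with single libraries left out. Whether the compounds differ more with IFNg than without it was not tested.

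Raising ABBV-744 from 50 to 500 nM moved the means of MT2A, MT1E and MT1X upward without a call. The log2 differences were 0.25 for MT2A (interval -0.0073 to 0.50), 0.30 for MT1E (0.065 to 0.53) and 0.40 for MT1X (0.070 to 0.74). With single libraries left out, MT2A ran from 0.15 to 0.38. With edgeR 0 of 8 members were called in either direction, against 0% of all genes higher and 0.0274% lower, with 2 below an unadjusted p of 0.05 (MT1E and MT1X) and 0 by DESeq2. With the replicate number as a block all 3 were called (0.25, 0.30 and 0.41), although the labels do not say that replicate numbers mark shared cultures.

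The interaction terms ask whether an inhibitor moves a gene by a different amount when IFNg is present. For ABBV-075 the MT2A term was -0.0017 (interval -0.32 to 0.32), so the rise over IFNg alone and the rise over DMSO were measured at nearly the same size. For ABBV-744 at 50 nM, MT2A rose less in the presence of IFNg (-0.41, SE 0.149, interval -0.72 to -0.11, adjusted p = 0.0223), and so did MT1X (-0.72, SE 0.223, interval -1.18 to -0.27, adjusted p = 0.00804). For ABBV-744 at 500 nM, MT1X rose less (-0.67, SE 0.218, interval -1.11 to -0.23, adjusted p = 0.0178), and MT2A was at -0.27 (interval -0.55 to 0.021, adjusted p = 0.147; -0.33 to -0.14 with single libraries left out). With edgeR the ABBV-075 terms gave 0 of 8 members in either direction, against 0.0173% of genes higher and 0.0173% lower, with 0 at an unadjusted p below 0.05 and 0 by DESeq2. The ABBV-744 terms gave 0 higher and 2 lower of 8 at 50 nM, against 25% and 26.5% of all genes, with 3 unadjusted and 1 by DESeq2. The uncalled terms ran from -0.39 to 0.52. The uncalled gene at an unadjusted p below 0.05 was MTF1, whose term was 0.58 after the GC correction (adjusted p = 0.0508, not called). At 500 nM the ABBV-744 terms gave 0 higher and 1 lower of 8, against 18.5% and 15%, with 2 unadjusted (MT1A and MT1X) and 1 by DESeq2. There the uncalled terms ran from -0.84 to 0.39, and MT1A was at -0.55 after the GC correction (not called).

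Calls among the ABBV-744 terms changed with the GC correction and with the scaling. Across genes they correlated with GC content at r = -0.73 at 50 nM (11283 genes) and -0.62 at 500 nM (11262). After the GC correction the MT2A term at 50 nM turned to 0.079 (interval -0.17 to 0.32, adjusted p = 0.713) and at 500 nM to 0.10, while MT1X was at -0.24 and -0.31, all uncalled. Calls over all genes fell as well, from 25% higher and 26.5% lower to 9.33% and 11.03% at 50 nM, and from 18.5% and 15% to 7.55% and 9.19% at 500 nM. The length correction gave -0.090 for MT2A at 50 nM and -0.46 and -0.48 for MT1X at the lower and higher dose, and scaling by library size only gave -0.22, -0.53 and -0.58, all uncalled. That scaling moved the median term of all genes at 50 nM from -0.14 to 0.043. The MT2A call at 50 nM was also lost by DESeq2 (-0.35), RLE normalization (-0.35) and the joint fit (-0.39), and without DMSO replicate 2 (-0.34), ABBV-744 replicate 2 (-0.29), IFNg replicate 3 (-0.29) or replicate 1 (-0.37) or 3 (-0.37) of the combination. The MT1X call at 500 nM was lost without ABBV-744 replicate 3 (-0.55) or replicate 3 of the combination (-0.50).

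**Figure D4:**
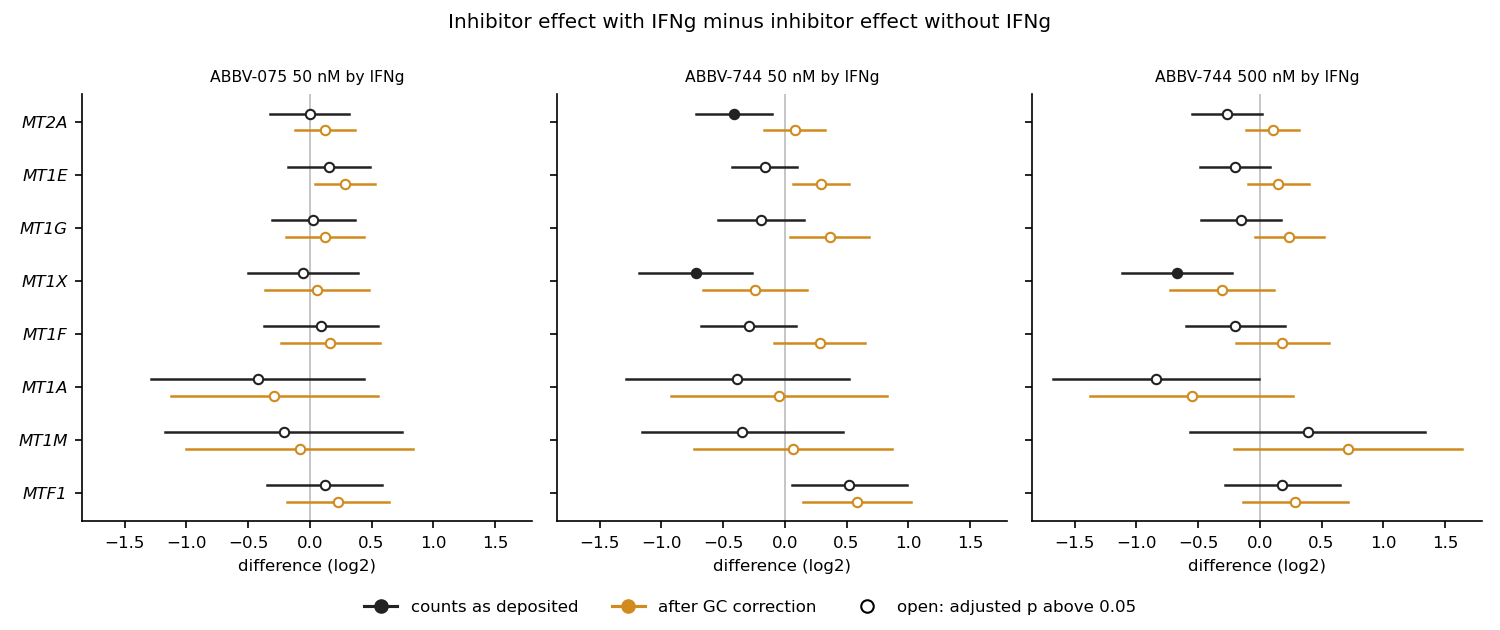
Difference between the log2 change with IFNg and that without it for each inhibitor, by member, with 95% intervals, from the deposited counts (black) and after the GC correction (orange), open where the adjusted p is above 0.05. The 3 filled points are MT2A and MT1X at 50 nM and MT1X at 500 nM of ABBV-744, and none is filled after the correction.

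The mix of metallothionein transcripts differed between groups, as did their sum. The 8 genes summed to 319 ± 19.3 CPM in DMSO (SD, n = 3), 599.9 with ABBV-075, 523 with ABBV-744 at 50 nM and 621 at 500 nM, 422 with IFNg, and 891, 592 and 732 when ABBV-075, ABBV-744 at 50 nM and ABBV-744 at 500 nM were added to IFNg. Per kilobase of canonical transcript, MT2A made up 35.8% ± 1.85 of the summed level in DMSO, 50.2% ± 1.09 with ABBV-075, 45.7% ± 1.32 with ABBV-744 at 50 nM and 46.2% ± 1.26 at 500 nM. Its share was 51.3% ± 4.70 with IFNg alone and 64.4% ± 0.586, 59.4% ± 1.11 and 62.0% ± 3.03 in the same 3 combinations. In the 3 DMSO libraries the share was 34.5% to 37.9%, below all libraries of the other groups. These shares are a description with no test and depend on the transcript lengths used.

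**Figure D5:**
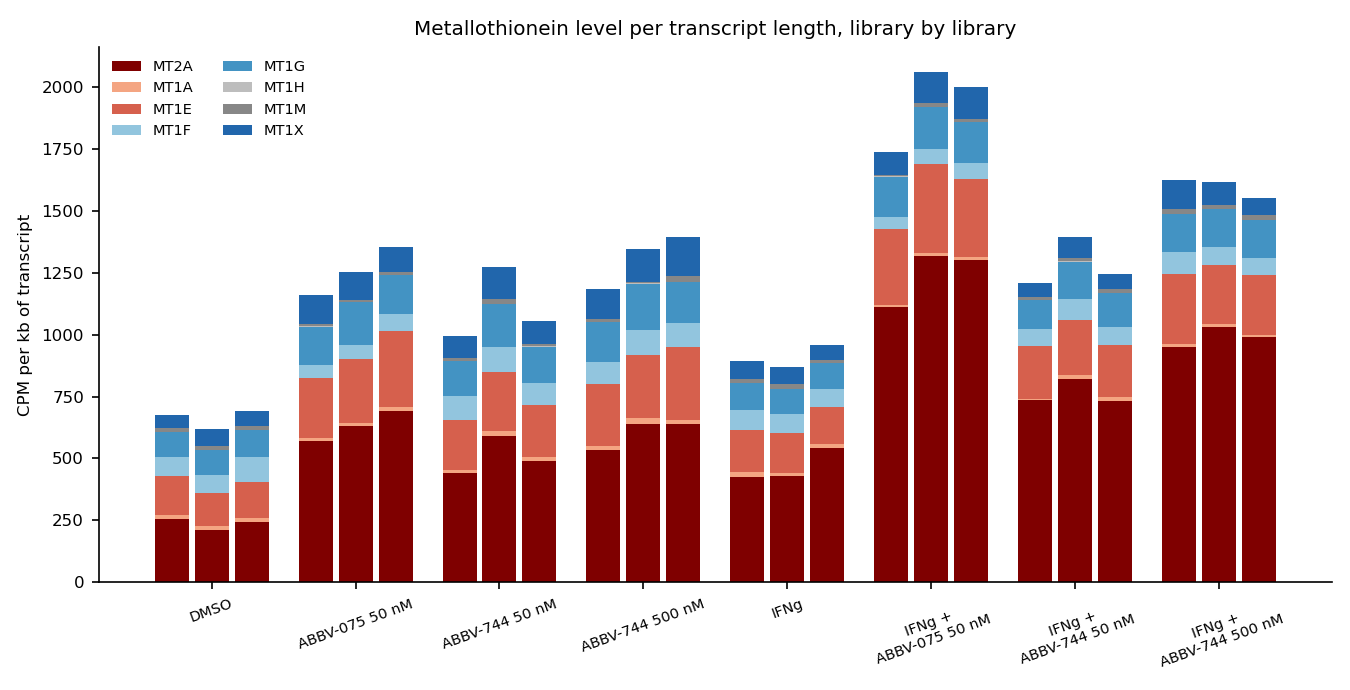
Level of the 8 metallothionein genes in CPM per kilobase of canonical transcript, stacked for each of the 24 libraries by group. MT2A (dark red, at the base) holds 34.5% to 37.9% of the stack in the DMSO libraries and 64.0% to 65.04% with IFNg plus ABBV-075.

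Over the 24 libraries the members varied together to different degrees, as a description over libraries that share treatments. Pearson's r of log2 CPM was 0.83 between MT2A and MT1E, 0.88 between MT1E and MT1G, 0.83 between MT1G and MT1X, 0.46 between MT2A and MT1X, 0.46 between MT2A and MTF1, and -0.42 between MT2A and MT1F. Outside the family, the 5 genes most like MT2A were TIGD3 (r = 0.92), C17orf96 (0.90), TMSB10 (0.89), ZFP36L2 (0.88) and HIST1H1D (0.86), among the 11583 genes whose log2 CPM averaged 1 or more. The 5 most like MTF1 were MOB1B (0.86), APAF1 (0.85), PCMTD1 (0.85), DYM (0.83) and MOCS2 (0.82).

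Lists of other genes give the wider setting, and each is counted as the number higher and the number lower. Over all genes tested, the shares higher and lower were 19.8% and 19.6% with ABBV-075, 8.81% and 10.1% with ABBV-744 at 50 nM, 7.48% and 7.8% at 500 nM, 2.76% and 0.695% with IFNg, and 28.2% and 28.4%, 27.4% and 24.3%, and 22.9% and 22.8% when ABBV-075, ABBV-744 at 50 nM and ABBV-744 at 500 nM were added to IFNg. After the GC correction these shares were 21.6% and 23.5%, 5.63% and 5.20%, 8.39% and 9.51%, 3.40% and 1.13%, 26.8% and 29.2%, 16.3% and 18.1%, and 17.4% and 19.4%, in the same order, and they are the ones to set beside corrected counts. No list was tested against either set of shares.

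Of 14 SLC39 genes, whose products carry zinc into the cytosol, 11 were tested, and with ABBV-075 0 rose and 6 fell, with a median log2 change of -0.54 against 0.026 for all genes. SLC39A14, a main importer of the hepatocyte, was at 579.8, 615 and 611 CPM in DMSO and 269, 296 and 303 CPM with ABBV-075, and fell by 1.08 (adjusted p = 1.95e-05). SLC39A4, the importer of dietary zinc, fell by 1.17 and SLC39A5 by 0.92. With ABBV-744 the counts were 1 higher and 2 lower at 50 nM (median -0.00060) and 0 and 1 at 500 nM (-0.13), and SLC39A14 was at -0.0033 and -0.027, neither called. Corrected for GC content, the counts were 1 and 5 with ABBV-075, 1 and 3 with ABBV-744 at 50 nM and 1 and 4 at 500 nM. ABBV-075 was below ABBV-744 at 50 nM for SLC39A14 by -1.05 (adjusted p = 0.000222).

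On top of IFNg the SLC39 counts were 2 higher and 6 lower with ABBV-075 (median -0.77 against -0.0030 for all genes), 2 and 7 with ABBV-744 at 50 nM (-0.40 against -0.017) and 2 and 6 at 500 nM (-0.52 against -0.030), and 0 and 0 with IFNg alone (-0.0033). With that correction they were 1 and 6, 0 and 3, and 0 and 5 in the combinations and 0 and 1 with IFNg alone. SLC39A14 fell in all 3 combinations, by 1.21, 0.36 and 0.52.

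Of 10 SLC30 genes, which carry zinc out of the cytosol, 6 were tested. SLC30A10, known chiefly as a manganese exporter, fell by 2.31 with ABBV-075 and by 2.88 with IFNg plus ABBV-075. SLC30A1, the plasma membrane exporter that MTF1 switches on and whose promoter held 1 core match, was at 69.7, 70.2 and 73.5 CPM in DMSO and was called in none of the 4 comparisons with DMSO, at 0.26 with ABBV-075, -0.23 and 0.11 with ABBV-744 at 50 and 500 nM, and -0.21 with IFNg. It rose over IFNg alone by 0.56 with ABBV-075, 0.69 with ABBV-744 at 50 nM and 0.58 at 500 nM. The GC correction left 0.22 (adjusted p = 0.0300), 0.19 and 0.21, the last pair uncalled, and called the 500 nM change against DMSO (0.25, adjusted p = 0.0426). The SLC30 list as a whole counted 2 higher and 1 lower with ABBV-075, 0 and 1 with ABBV-744 at 50 nM, 0 and 0 at 500 nM and with IFNg, and 4 and 1, 5 and 0, and 4 and 0 in the 3 combinations, where the GC correction gave 2 and 3, 1 and 1, and 1 and 2. Against DMSO the correction gave 1 and 2 with ABBV-075, 1 and 0 and then 2 and 0 with ABBV-744 at 50 and 500 nM, and 0 and 0 with IFNg. Where edgeR called none, 2 SLC30 genes were at an unadjusted p below 0.05 with ABBV-744 at 500 nM and 2 with IFNg, as were 2 SLC39 genes with IFNg.

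Other inducers of metallothioneins were counted through lists that hold regulators (NFE2L2, KEAP1, HSF1 and NR3C1) along with usual target genes. Among 10 oxidative stress genes of the NRF2 pathway, 4 rose and 3 fell with ABBV-075 (median 0.046), with TXNRD1, thioredoxin reductase, up by 0.72 and the heme oxygenase gene HMOX1, at -1.54. That list gave 0 and 3 with ABBV-744 at 50 nM, 1 and 1 at 500 nM, 0 and 1 with IFNg, and 4 and 5, 4 and 1, and 2 and 1 in the combinations. With the GC correction it gave 4 and 4, 2 and 1, 3 and 2, and 0 and 1 against DMSO in the same order, and 4 and 5, 2 and 2, and 3 and 4 in the combinations. Of 8 heat shock genes 7 were tested, with 2 higher and 0 lower for ABBV-075 (HSP90AA1, a chaperone, by 1.18), 2 and 2 and then 2 and 0 for ABBV-744 at 50 and 500 nM, 0 and 0 for IFNg, and 3 and 2, 2 and 3, and 2 and 2 in the combinations. The corrected counts were 3 and 0, 0 and 1, 2 and 0, and 0 and 0 against DMSO and 2 and 0, 2 and 2, and 2 and 1 in the combinations.

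Of 8 genes of the glucocorticoid receptor and its targets, 5 were tested against DMSO, with 3 higher and 1 lower for ABBV-075, 0 and 2, 0 and 1, and 0 and 1 for ABBV-744 at 50 and 500 nM and IFNg, and 3 and 1, 3 and 1, and 2 and 1 in the combinations. The GC correction left 1 and 1, 0 and 1, 0 and 1, and 0 and 0 against DMSO, and 2 and 1, 1 and 1, and 0 and 1 in the combinations. SGK1, a kinase gene induced by glucocorticoids, fell by 2.04 with ABBV-075 and by 1.06 and 1.28 with ABBV-744 at 50 and 500 nM. After the GC correction, the 1 gene of this list called higher with ABBV-075 was DUSP1, at 0.71 (adjusted p = 0.000161), and SGK1 was at -2.27. The 10 copper handling genes gave 0 and 0 with ABBV-075, 0 and 1 at each dose of ABBV-744 (CP, ceruloplasmin, by -1.04 and -1.05), 0 and 0 with IFNg, and 1 and 2, 2 and 1, and 1 and 1 in the combinations. Once corrected, ABBV-075 gave 1 and 1, with SOD1, a superoxide dismutase, at 0.33 (adjusted p = 0.0143) and CP at -0.71 (adjusted p = 0.000512), each dose of ABBV-744 gave 0 and 1, IFNg gave 0 and 0, and the combinations gave 1 and 3, 1 and 1, and 1 and 3. Among the lists without a call by edgeR, an unadjusted p below 0.05 was reached by 2 copper genes with ABBV-075 and 1 with IFNg, and by 0 heat shock genes with IFNg.

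Neighbouring genes of the cluster on chromosome 16 moved in both directions. Of 10 listed, 7 were tested, and with ABBV-075 BBS2, a gene of the primary cilium, rose by 0.74 while HERPUD1, a gene of the endoplasmic reticulum stress response, fell by 0.91, OGFOD1 by 0.56 and NLRC5, a transactivator of MHC class I genes, by 0.82 (median of the list -0.50). The GC correction brought NLRC5 to -0.65 (adjusted p = 0.0620, not called). ABBV-744 gave 0 higher and 0 lower at 50 nM (edgeR, 2 at an unadjusted p below 0.05, median -0.014) and 1 and 0 at 500 nM (BBS2, 0.55, median 0.049). With IFNg, NLRC5 rose by 3.98 (adjusted p = 7.14e-24) and 0 fell. The combinations gave 2 and 4, 2 and 3, and 2 and 4, with HERPUD1 lower by -1.21, -0.57 and -0.70. With the GC correction the combinations each gave 1 and 4, BBS2 was not called in them (0.23, 0.011 and 0.18), and the counts against DMSO were 1 and 3, 0 and 0, 1 and 0, and 1 and 0.

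HEXIM1, an established response gene of BET inhibitors, served as a check of the treatments. It was at 54.2, 56.8 and 50.6 CPM in DMSO and 137, 146 and 152 CPM with ABBV-075, a log2 change of 1.41 (adjusted p = 6.81e-06). With ABBV-744 the change was 0.29 at 50 nM (adjusted p = 0.0816, not called) and 0.74 at 500 nM (adjusted p = 1.89e-05). On top of IFNg it was 1.51, 0.092 (not called) and 0.58. MT2A was called in each of these 6 comparisons, at 1.39, 1.11 and 1.36 against DMSO and 1.41, 0.73 and 1.07 against IFNg alone.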

How the data were processed

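RNA-seq gene counts of 24 HepG2 libraries were taken as deposited. The authors trimmed directional, ribosome-depleted reads with Trimmomatic 0.33 and aligned them with STAR 2.7.1 to GRCh38, and the deposited values are counts of uniquely mapped reads per gene, of which the column for the gene's strand (98.3% to 98.5% of the reads of both strands) was used. Each comparison was fitted over all genes with edgeR 4.0.16 (R 4.3.3; filterByExpr, TMM, quasi-likelihood F test), with Benjamini-Hochberg adjusted p-values over all genes tested and no covariates. An interaction fit used 12 libraries. Alternatives were DESeq2 1.42.0, RLE normalization, library size only, no filter, a filter of 10 counts per library, 1 joint fit of the 24 libraries, a replicate block, counts of both strands, the study's fold threshold (absolute log2 change of at least 1.5) and each library left out. GC and length corrections (lowess, span 0.3, longest GENCODE 44 transcript), and GC with the replicate block, were chosen after seeing the data. Named genes were all 9 members, the 5 genes with the highest Pearson r (log2 CPM, prior count 2) with MT2A and with MTF1, and genes of fixed lists that passed or served as a check. Members and lists were chosen with earlier results of these data known.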

Additional observations from a re-analysis of the deposited data

Results flagged for a closer look

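For ABBV-744, 3 effects differed between cells with and without IFNg by the edgeR interaction term. At 50 nM the MT2A effect was smaller with IFNg by a log2 difference of -0.41 and the MT1X effect by -0.72. At 500 nM the MT1X effect was smaller by -0.67. After the GC correction these were 0.079, -0.24 and -0.31, with no call. Over all genes tested, 25% of terms were higher and 26.5% lower at 50 nM and 18.5% and 15% at 500 nM, against 2 of 8 and 1 of 8 members lower. The GC correction also lowered these shares, to 9.33% and 11.03% at 50 nM and 7.55% and 9.19% at 500 nM, against 0 of 8 members. Outlying samples were not tested for, since each group holds 3 libraries. ABBV-075 replicate 3 correlated at 0.958 and 0.972 with the others of its group, and without it the same 5 members were called.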

How the results depend on the processing

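Over all members, comparisons and alternatives, 1781 of 2010 log2 values kept their sign and side of the threshold, 93 lost and 39 gained a call, and 97 changed sign, of which 2 had passed as first fitted and 0 passed in the alternative. The study's fold threshold left 0 members called in each of the 11 comparisons that had any, since every called member was below it as first fitted. After the GC correction MT2A was above that threshold with ABBV-075, at 1.55 against DMSO and 1.68 over IFNg alone. With IFNg plus ABBV-075 the length correction left 4 of 7 calls. For ABBV-075 against ABBV-744 at 50 nM, 1 call became 3 with library size only or the length correction, 4 with all 24 libraries and 5 with the GC correction, with or without the replicate block, and 1 to 2 with a library left out (2 without ABBV-075 replicate 1 or ABBV-744 replicate 1). For 500 against 50 nM of ABBV-744, 0 calls became 3 with the replicate block, alone or with the GC correction, where 320 genes were called in place of 3. For this pair of doses the residual correlation of same-numbered libraries was 0.25, 0.33 and 0.058, and each library matched its own number best, a hint from the data and not from the design. Over all comparisons the residual correlation was -0.18 to 0.34 over 30 pairs, above 0.1 in 7, and the best match had the same number in 12.

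For the ABBV-744 interaction at 50 nM, 2 calls became 1 with DESeq2 (MT1X), 1 with library size only, 0 with the GC or length correction, 1 with the GC correction and replicate block, and 1 to 3 with a library left out (1 without DMSO replicate 2, ABBV-744 replicate 2, IFNg replicate 3 or the combination's replicate 1 or 3). The 1 call with library size only was neither MT2A nor MT1X, which were uncalled there. At 500 nM, 1 call became 0 with library size only, the GC or length correction or the GC correction with replicate block, and 0 to 1 with a library left out (0 without replicate 3 of ABBV-744 or of the combination).

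Signs turned for the MT2A interaction with the GC correction, at 50 nM (0.079, with the replicate block 0.082) and at 500 nM (0.10, with the block 0.11). The MT2A interaction of ABBV-075, at -0.0017, was 0.018 with DESeq2, 0.021 with RLE, 0.034 with library size only, 0.014 with no filter, 0.0047 with at least 10 counts, 0.0015 with all 24 libraries, 0.0078 with the replicate block, 0.12 with the GC correction, 0.024 with the length correction and 0.13 with GC and block, and -0.072 to 0.12 with a library left out. With a library left out, MT1X was at -0.15 to 0.12 for IFNg plus ABBV-744 at 50 nM and -0.0080 to 0.27 for ABBV-075 against ABBV-744, the low value without ABBV-744 replicate 1. The cause of these changes was not tested.

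Library size only changed the split of all calls, higher and lower, from 832 and 868 to 475 and 1067 (ABBV-744 at 500 nM), 310 and 78 to 250 and 204 (IFNg), 1860 and 1892 to 1166 and 2836 (the matched compounds with IFNg, median -0.12), 2866 and 3039 to 3386 and 1740 (interaction at 50 nM) and 2115 and 1712 to 2292 and 1095 (at 500 nM). At 0 to 5 counts, MT1H was tested with no filter, where it passed in ABBV-075 against DMSO and in no other comparison, and with DESeq2 for 500 against 50 nM of ABBV-744, where it did not pass. Depth limits MT1A and MT1M, whose intervals are the widest, and MT1H, which has none in the main fits.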
